A study of Mus musculus with 6 samples.

Results

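The 6 STAT genes described here, *Stat2*, *Stat3*, *Stat4*, *Stat5a*, *Stat5b* and *Stat6*, were chosen by gene symbol from a table of 39017 Ensembl gene identifiers, by a rule that reads no measured value. RNA was sequenced in 6 libraries of adherent cells grown from mouse bone marrow, 3 labelled Old and 3 labelled Young. The Old mice were older than 78 weeks and the Young mice were 3 weeks of age. Both ages were wild-type BALB/c, with no transgene or treatment named. Bones were crushed, non-adherent cells were removed, the attached cells were expanded in culture, and the labels give their surface phenotype as F4/80+ CD169+. The series title concerns B-cell acute lymphoblastic leukemia and the CXCR5-CXCL13 axis, and the comparison open to these libraries is that of the 2 ages. Nothing in the labels tells whether each library is another animal, and p-values here therefore reflect only how far these 6 libraries spread, which may be technical.

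STAT proteins are latent transcription factors that carry cytokine signals to the nucleus. A cytokine or interferon brings its receptor chains together, receptor-bound Janus kinases (JAKs) phosphorylate a tyrosine of the STAT, and the phosphorylated STATs pair through their SH2 domains and bind DNA. The messenger RNA measured here gives the supply of each STAT and not its phosphorylation. In macrophages STAT2 carries type I interferon signals, STAT3 those of IL-6 and IL-10, STAT5A and STAT5B those of GM-CSF, and STAT6 those of IL-4 and IL-13, while STAT4 is best known for IL-12 signals in T and NK cells.

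Levels are in CPM, the counts of a gene per 1000000 counts of its library, with library sizes scaled by the trimmed mean of M values (TMM). The libraries held 36136137 to 43367734 counts in Old and 34391206 to 35813492 counts in Young. A gene was called where the adjusted p of edgeR's quasi-likelihood test over all 15567 genes tested was under 0.05, and fold changes are log2 values, Old minus Young. Young replicate 3 stood apart from its group. A chi-square of counts per degree of freedom was 111.3 and 117.7 between it and the other Young libraries, against 23.2 to 31.4 for the remaining pairs of one age, and values without it are given where it matters. No pair of libraries of one age differed as little as repeat deposits of one library would, and Old libraries were not compared with Young ones in this way. The gene of F4/80, *Adgre1*, averaged 226 ± 25.3 CPM in Old and 473 ± 77.5 CPM in Young (SD, n = 3 each), and that of CD169, *Siglec1*, 43.3 ± 5.28 CPM in Old and 131 ± 6.61 CPM in Young. As a background for the marker counts that follow, 5.84% of all genes tested were higher and 4.7% lower in Old. Of 14 macrophage markers 12 were lower in Old and none was higher. Their summed level was 5071 to 5473 CPM in Old and 9036 to 10769 CPM in Young. The summed level of 10 stromal markers, led by collagen genes, was larger than that of the macrophage markers in every library, at 23525 to 29633 CPM in Old and 30818 to 68480 CPM in Young, with the highest value in Young replicate 3. That of 8 osteoblast markers was 7148 to 8766 CPM in Old and 6394 to 8007 CPM in Young. Of these 8, 4 were lower and 1 was higher in Old (2 to 5 lower and 0 to 1 higher with a library left out). Markers of B cells were higher in Old for 6 of 7 tested, those of megakaryocytes for 5 of 7 and those of mast cells and basophils for 5 of 7. These counts, like that of all genes, changed with the library left out. Over all genes, edgeR called 909 higher with all 6 libraries. It called 418, 433 and 492 without Old replicates 1, 2 and 3 in turn. Without Young replicates 1, 2 and 3 in turn it called 539, 621 and 1459. With 1 library left out the marker counts were 2 to 5 for B cells (2 without Old replicate 1 or 2, 3 without Young replicate 1 or Old replicate 3), 2 to 6 for megakaryocytes (2 without Young replicate 3, 3 without Young replicate 1 or Old replicate 1 or 2) and 2 to 4 for mast cells and basophils (2 without Young replicate 2 or Old replicate 2 or 3, 3 without replicate 1 of either age). The summed levels of these 3 lists were 114 to 128, 232 to 324 and 65.6 to 110.3 CPM in Old, against 53.6 to 71.3, 47.3 to 81.1 and 26.8 to 33.0 CPM in Young. In bulk RNA of this kind, fewer cells of a type and less RNA per cell cannot be told apart.

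Among the 6 STAT genes, *Stat2*, the interferon signal carrier, was the one whose levels stood apart between the ages, and the Old and Young ranges of the other 5 overlapped. *Stat2* averaged 1.40-fold lower in Old than in Young, and each Old library lay below each Young library. No STAT gene passed the edgeR threshold, against 10.5% of all genes tested. The ranges of Old and Young CPM were apart for 1 of the 6, *Stat2*, against 30.2% of all genes tested. At an unadjusted p under 0.05, edgeR counted 1 of the 6, again *Stat2*, against 23.8% of all genes. DESeq2 called 1 of the 6, *Stat2*, against 15.9% of all genes (7.3% lower in Old), and limma-voom called 0, against 10.6% (4.55% lower in Old). Of the 6 log2 fold changes 4 were positive and 2 negative, and 4 were smaller than 0.2 in size. Their median was 0.05, against −0.01 for all genes tested. The median size of the log2 fold change, whatever its sign, was 0.20 over all genes tested.

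**Figure D1:**
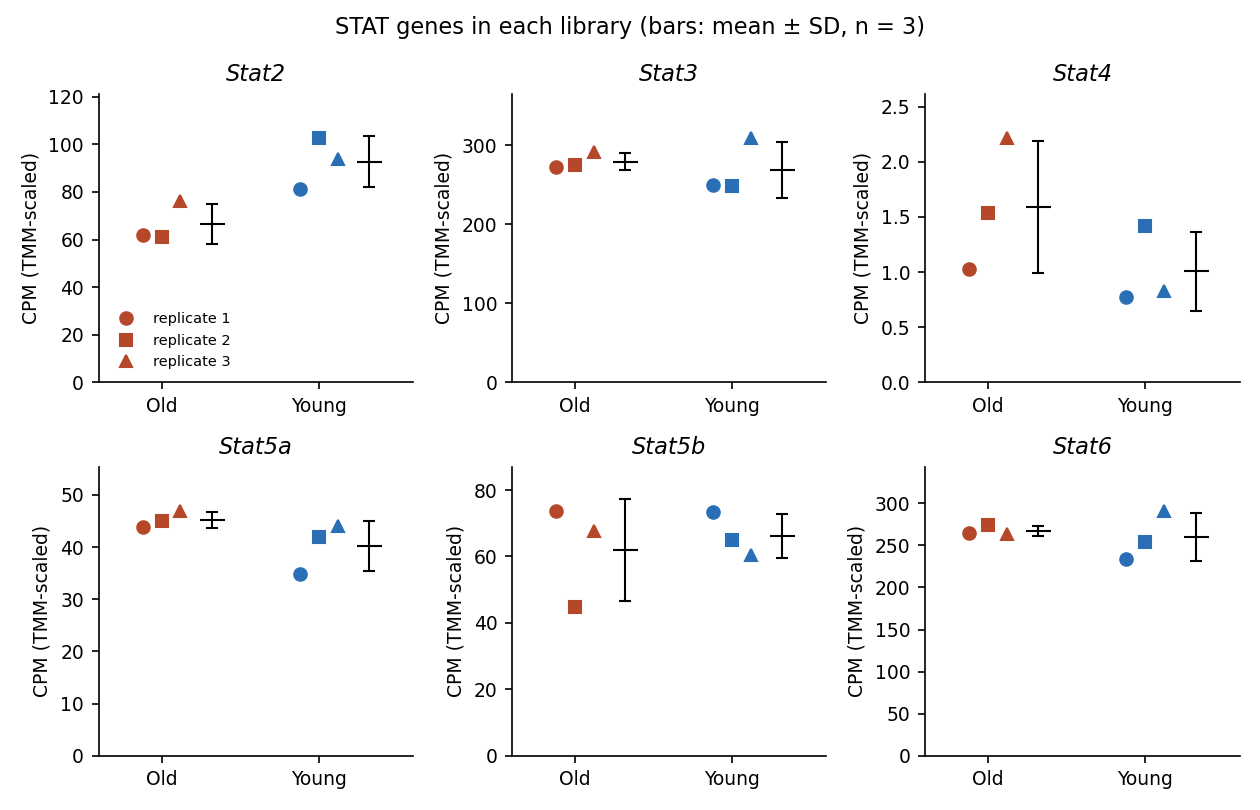
Each panel plots one STAT gene, with CPM on the vertical axis and Old (red) left of Young (blue); circles, squares and triangles are replicates 1, 2 and 3, and the bars give the mean ± SD of 3 libraries. Only for *Stat2* do the ages stand apart, with Old at 61.1 to 76.3 CPM and Young at 81.4 to 102.9 CPM. Of all genes tested, 30.2% had ranges apart.

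*Stat2* (ENSMUSG00000040033) lies on the plus strand at chr10:128270559-128292849 of mm10. STAT2 and IRF9 are parts of ISGF3, the complex that takes type I and type III interferon signals to interferon-stimulated response elements, and *Stat2* is itself a known interferon-induced gene. *Stat2* had 62.1, 61.1 and 76.3 CPM in Old replicates 1, 2 and 3, against 81.4, 102.9 and 94.0 CPM in Young replicates 1, 2 and 3. The highest Old library, replicate 3, remained under the lowest Young library, replicate 1. The means were 66.5 ± 8.54 CPM in Old and 92.8 ± 10.8 CPM in Young, each from at least 2352 counts per library. The log2 fold change was −0.48 with an SE of 0.13 (95% interval −0.78 to −0.18), which corresponds to a level 1.13-fold to 1.72-fold lower in Old. Its edgeR adjusted p was 0.0568, just over the threshold, and its unadjusted p was 0.00645. The DESeq2 adjusted p was 0.00938 and that of limma-voom 0.0535, so the call depended on the test. With 1 library left out, the fold change lay between −0.59 and −0.40, and the edgeR adjusted p between 0.0516 and 0.199. Without Young replicate 3 the fold change was −0.47. The fold change of *Stat2* was larger in size than that of 76.5% of the genes tested.

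The promoter of *Stat2* is printed because it carries matches to both an interferon response type of element and a STAT type of element, the only window of the 6 genes to hold both. It runs from 250 bases before to 50 bases after the RefSeq transcript start, on the plus strand at chr10:128270248-128270547 (GRCm38.p6), a start that lies before the GENCODE one, and capitals mark the 2 matches.
Stat2 promoter: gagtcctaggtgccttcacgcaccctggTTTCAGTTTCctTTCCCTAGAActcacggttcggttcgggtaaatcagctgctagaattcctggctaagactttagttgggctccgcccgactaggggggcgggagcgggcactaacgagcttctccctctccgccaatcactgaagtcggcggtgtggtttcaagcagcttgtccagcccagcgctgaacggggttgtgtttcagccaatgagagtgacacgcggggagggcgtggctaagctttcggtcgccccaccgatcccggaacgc
The first match, on the minus strand, is to 2 copies of GAAA with any 2 bases between them, the core of interferon-stimulated response elements, and begins 222 bases before the start. The second is to TTC and GAA with any 4 bases between them, the wide-spaced palindrome that STAT6 is known to prefer, and begins 210 bases before the start. The 2 matches do not overlap each other. Both strands of 9 RefSeq windows were searched for the 6 genes, 1 or 2 per gene, for these letters and for TTCNNNGAA, the palindrome bound by most STAT dimers. The interferon type was in 3.44% of the 32851 windows of all genes, the wide-spaced type in 6.95% and TTCNNNGAA in 8.30%. Among the 9 windows, the interferon type was also found in the second window of *Stat4*, 97 bases before its start on the plus strand, and TTCNNNGAA was found in none. The interferon type matches of both genes are given for comparison, as read on the plus strand.
Stat2 match: TTTCAGTTTC
Stat4 match: GAAAGTGAAA
A match describes the letters of the window and is not a shown binding site. The *Stat2* window was 59.3% G and C, and the windows of the 6 genes ran from 46% for the second of *Stat4* to 82.7% for the second of *Stat5b*, against a median of 52.7% over all windows.

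*Stat3* (ENSMUSG00000004040) lies on the minus strand at chr11:100885098-100939540. STAT3 is the acute-phase response factor of IL-6 type cytokines and the anti-inflammatory effector of IL-10 in macrophages. It was the most abundant of the 6 in CPM, with 271.8, 274.5 and 291.2 CPM in Old replicates 1 to 3, against 249.5, 247.9 and 309.8 CPM in Young. The Old values lay inside the span of the Young values, whose highest library was replicate 3. The means were 279 ± 10.5 CPM in Old and 269 ± 35.3 CPM in Young, with a log2 fold change of 0.05 (SE 0.10, 95% interval −0.19 to 0.30, edgeR adjusted p = 0.822). The interval allows ratios of Old to Young between 0.876 and 1.23. Without Young replicate 3 the fold change was 0.17 (edgeR adjusted p = 0.0995), and without Young replicate 2 it was −0.0035.

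*Stat4* (ENSMUSG00000062939) lies on the plus strand at chr1:51987148-52107189. STAT4 drives the type 1 programme, including interferon gamma, downstream of IL-12. It was the least abundant of the 6, with 1.03, 1.53 and 2.22 CPM in Old, against 0.771, 1.41 and 0.832 CPM in Young. Those levels rest on 45, 59 and 80 counts in Old and 27, 50 and 28 counts in Young. The highest value was in Old replicate 3, and Young replicate 2 lay within the Old range. The log2 fold change was 0.66 (SE 0.40, 95% interval −0.28 to 1.59, edgeR adjusted p = 0.386), and the interval allows ratios of Old to Young between 0.825 and 3.02. It went as low as 0.34 without Old replicate 3 and as high as 0.98 without Young replicate 2. A further limit is that 26.7% of its exon length is shared with the gene model Gm28177 on the same strand. Markers of T and NK cells, the usual source of *Stat4*, had a summed level of 5.43 to 13.1 CPM in Old and 17.4 to 32.3 CPM in Young over 15 genes. Of the 9 tested, 1 was lower in Old and none was higher, while 4 were lower without Young replicate 3, 2 without Old replicate 3 and 3 by DESeq2. Over all genes tested in all 6 libraries, edgeR called 4.7% and DESeq2 7.3% lower. *Cd8a*, *Klrb1c* and *Gzma* had no count in any Old library. Whether those cells contributed to *Stat4* was not tested.

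*Stat5a* (ENSMUSG00000004043) and *Stat5b* (ENSMUSG00000020919) encode the near-identical STAT5 proteins, which signal for GM-CSF, IL-3, growth hormone, prolactin and the IL-2 family. *Stat5a* had 43.9, 44.9 and 46.9 CPM in Old, against 34.8, 41.9 and 44.0 CPM in Young. The top Young library lay just above the bottom Old library, so the ranges overlapped by a narrow margin. The means were 45.2 ± 1.55 CPM in Old and 40.2 ± 4.81 CPM in Young, with a log2 fold change of 0.17 (SE 0.11, 95% interval −0.08 to 0.42, edgeR adjusted p = 0.413). *Stat5b* had 73.7, 44.7 and 67.8 CPM in Old, against 73.5, 64.9 and 60.4 CPM in Young. Old replicate 2 was the lowest library and Old replicate 1 the highest, so the Old range enclosed the Young one. The means were 62.0 ± 15.3 CPM in Old and 66.3 ± 6.64 CPM in Young, with a log2 fold change of −0.09 (SE 0.19, 95% interval −0.53 to 0.35, edgeR adjusted p = 0.825). Without Old replicate 2 the fold change of *Stat5b* was 0.09, with the opposite sign.

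Because the 2 STAT5 genes share their signals, their balance was also compared within each library, where scaling between libraries has no part. There were 59.5, 100.6 and 69.2 *Stat5a* counts per 100 *Stat5b* counts in Old replicates 1 to 3, against 47.4, 64.6 and 72.8 in Young. Old replicate 2 alone had as much *Stat5a* as *Stat5b*, and the other libraries had more *Stat5b*. The log2 ratio of *Stat5a* to *Stat5b* averaged −0.42 ± 0.39 in Old and −0.72 ± 0.32 in Young, a difference of 0.30 (two-sided exact permutation test, p = 0.5, where 3 libraries against 3 cannot go below 0.1). The difference was 0.08 without Old replicate 2 and 0.12 without Young replicate 1. Reads of the 2 genes could be exchanged to a small extent. Their longest open reading frames were 90.7% identical over 2294 aligned bases, whereas every other pair of the 6 genes had 54.0% to 61.3%. Of stretches of 100 bases, the read length, 265 occurred in both genes, which is 3.44% of those of *Stat5a* and 4.79% of those of *Stat5b*, and no other pair of the 6 genes shared one.

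*Stat6* (ENSMUSG00000002147) lies on the plus strand at chr10:127642986-127660957. STAT6 is the IL-4 and IL-13 effector that sets the alternative activation programme of macrophages. It had 264.8, 274.2 and 263.3 CPM in Old, against 234.0, 254.5 and 290.9 CPM in Young. The Old libraries lay close together inside the Young span, and Young replicate 3 was the highest. The means were 267 ± 5.90 CPM in Old and 260 ± 28.8 CPM in Young, with a log2 fold change of 0.04 (SE 0.09, 95% interval −0.18 to 0.26, edgeR adjusted p = 0.849). The interval allows ratios of Old to Young between 0.884 and 1.20. Without Young replicate 3 the fold change was 0.13, and without Young replicate 1 it was −0.03.

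The spread among libraries of one age also differed between the STAT genes. The coefficient of variation was 2.21% in Old and 11.1% in Young for *Stat6*, 3.42% in Old and 11.95% in Young for *Stat5a*, and 3.77% in Old and 13.1% in Young for *Stat3*. It was 24.7% in Old and 10.03% in Young for *Stat5b*, 12.8% in Old and 11.6% in Young for *Stat2*, and 37.6% in Old and 35.3% in Young for *Stat4*. With all 3 libraries the Young spread exceeded the Old one for *Stat3*, *Stat5a* and *Stat6*, but single libraries decided this for the first pair. The Young value of *Stat3* was 0.461% without Young replicate 3, and that of *Stat5a* was 3.38% without Young replicate 1. For *Stat6* it was 5.94% to 15.3% with 1 Young library left out. The Old value of *Stat5b* was 5.92% without Old replicate 2. With 3 libraries per age these spreads were not tested against each other. Over the 6 libraries, Pearson's r of log2(CPM + 1) was 0.84 between *Stat3* and *Stat6*, 0.78 between *Stat5a* and *Stat6*, 0.66 between *Stat3* and *Stat5a* and also 0.66 between *Stat4* and *Stat5a*. *Stat2* followed none of the others closely, with r between −0.26 and 0.27. These r values describe 6 libraries that share their scaling.

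**Figure D2:**
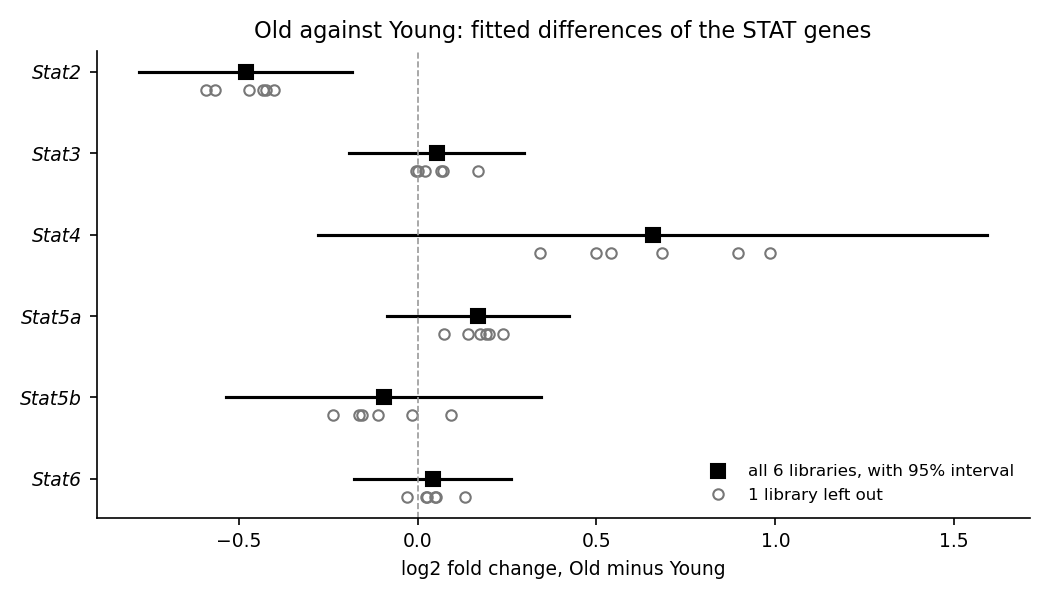
The horizontal axis is the log2 fold change, Old minus Young, for each STAT gene; black squares with lines are the estimates from all 6 libraries with their 95% intervals, and open circles are the estimates with 1 library left out. The *Stat2* estimates, −0.59 to −0.40 with 1 library left out, all lie below 0. Those of *Stat4*, 0.34 to 0.98, and of *Stat5a*, 0.07 to 0.24, all lie above 0. The estimates of *Stat3*, *Stat5b* and *Stat6* fall on both sides of 0.

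To set the genes against each other, CPM was divided by kilobases of exon (CPM per kb). *Stat6* was highest, at 60.8 ± 1.34 in Old and 59.0 ± 6.55 in Young, followed by *Stat3* at 29.3 ± 1.10 in Old and 28.2 ± 3.70 in Young (mean CPM per kb ± SD, n = 3 each). *Stat2* had 11.2 ± 1.44 CPM per kb in Old and 15.7 ± 1.82 CPM per kb in Young, and *Stat5b* had 11.2 ± 2.77 in Old and 11.96 ± 1.20 in Young. *Stat5a* followed at 6.34 ± 0.217 CPM per kb in Old and 5.64 ± 0.674 CPM per kb in Young, and *Stat4* came last at 0.412 ± 0.155 in Old and 0.260 ± 0.0918 in Young. *Stat3*, with 9527 bases of exon, leads in CPM, and *Stat6*, with 4402 bases, leads per kb. With all exons as the length, neighbours in this order had separate ranges at both ages except *Stat2* and *Stat5b*. In Old, *Stat2* spanned 10.3 to 12.9 CPM per kb and *Stat5b* 8.06 to 13.3, so the pair could not be ordered. In Young, *Stat2* spanned 13.7 to 17.4 CPM per kb and lay above *Stat5b* at 10.9 to 13.3. With the longest transcript as the length, *Stat5a* at 11.1 to 11.85 CPM per kb in Old also lay within the *Stat5b* range of 8.57 to 14.1, so that the place of *Stat5a* below *Stat5b* in Old rests on the length used. Among the tested genes, *Stat6* was above 93.8% per kb, *Stat3* above 86.0%, *Stat2* above 72.6%, *Stat5b* above 69.9%, *Stat5a* above 55.2% and *Stat4* above 10.5%. Of the summed CPM per kb of the 6 genes, *Stat6* made up 51.0% ± 2.45 in Old and 48.8% ± 1.26 in Young, and *Stat2* made up 9.40% ± 0.959 in Old and 13.0% ± 1.39 in Young.

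**Figure D3:**
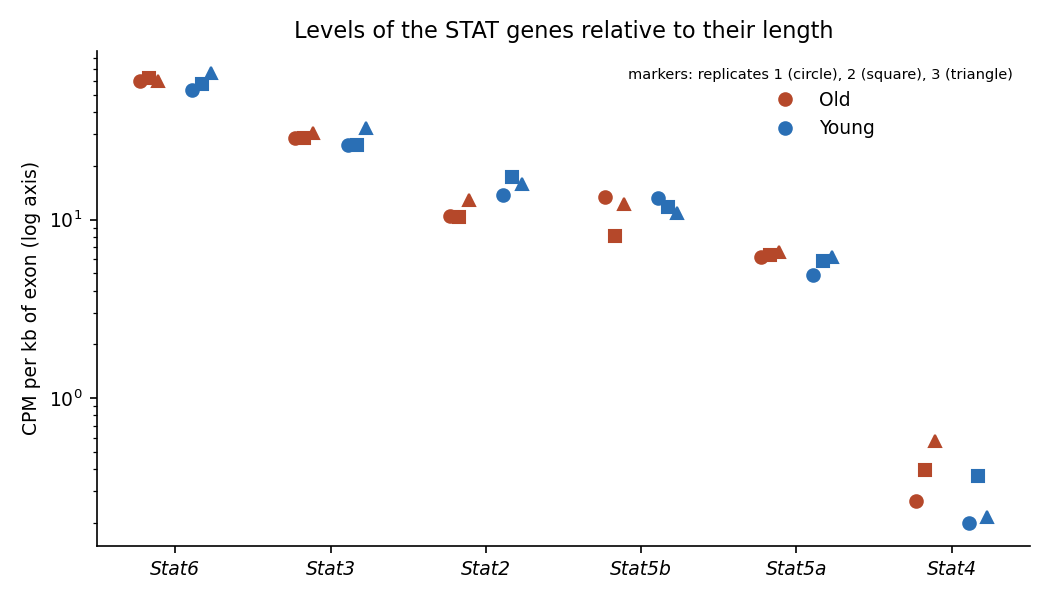
CPM per kb of exon, on a log axis, for the 6 STAT genes in falling order, with Old (red) left of Young (blue) and replicates 1, 2 and 3 as circles, squares and triangles. *Stat6* sits near 60 and *Stat4* under 0.6 CPM per kb at both ages, and *Stat2* and *Stat5b* overlap in Old only.

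The 6 genes lie on 3 chromosomes. *Stat3*, *Stat5a* and *Stat5b* form a cluster on chromosome 11, with *Stat5b* at chr11:100780731-100850724 on the minus strand and *Stat5a* at chr11:100859351-100885169 on the plus strand, separated by 8626 bases. The ends of *Stat5a* and *Stat3* overlap tail to tail by 72 bases, 1.01% of the *Stat5a* exon length and 0.756% of that of *Stat3*. The kit does not mark the strand, so reads from those 72 bases cannot be told apart. *Stat2* and *Stat6* are 609601 bases apart on chromosome 10, and *Stat4* is on chromosome 1. The nearest protein-coding genes that entered the test did not pass it. *Cavin1*, beside *Stat3*, had 371 ± 18.9 CPM in Old and 316 ± 53.7 CPM in Young (edgeR adjusted p = 0.322). *Nab2*, whose exons overlap those of *Stat6* by 40 bases, had 70.0 ± 4.06 CPM in Old and 77.1 ± 8.005 CPM in Young (edgeR adjusted p = 0.476). Beside *Stat2*, *Apof* had no count in Old and 0.0758 ± 0.0656 CPM in Young, and *Il23a* had no count in any library.

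For each STAT gene the most similar profiles over the 6 libraries were sought by Pearson's r of log2(CPM + 1) among 10503 or 10504 genes with a mean of at least 5 CPM. *Igsf6* (r = 0.98) and *Rbm27* (r = 0.98) were nearest to *Stat2*. *Igsf6*, an immunoglobulin superfamily gene of myeloid cells, had 17.0 ± 3.25 CPM in Old and 31.9 ± 5.36 CPM in Young (log2 fold change −0.91, edgeR adjusted p = 0.0227). *Ptk2* (r = 0.999) and *Fyco1* (r = 0.99) were nearest to *Stat3*, *Zfp983* and *Ddhd2* (r = 0.97 each) to *Stat4*, *Zfp397* and *Adcy2* (r = 0.998 each) to *Stat5a*, *Tprkb* (r = 0.986) and *Tfpi* (r = 0.978) to *Stat5b*, and *Cbx6* (r = 0.995) and *Ap2a1* (r = 0.989) to *Stat6*. *Stat3* had 144 genes with r over 0.95, *Stat2* had 27 and *Stat4* had 6. With 6 libraries, high r values are found for many genes.

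Genes that act before and after the STATs passed the test in both directions. Of 171 distinct genes in 15 lists of ligands, receptors, kinases, inhibitors, partners and targets, 142 were tested, of which 20 (14.1%) were higher and 27 (19.0%) lower in Old. Among all genes tested, 5.84% were higher and 4.7% lower. The median log2 fold change of the 142 was −0.09, against −0.01 for all genes. These counts, like those of all genes, changed with the library left out. Leaving out 1 library gave 13 to 22 higher and 8 to 41 lower, with the lowest counts without Old replicate 1 (13 and 9) or Old replicate 2 (13 and 8) and the highest without Young replicate 3 (22 and 41). Over all genes, the same fits called 418 to 1459 higher and 294 to 1168 lower, against 909 and 731 with all libraries. The lists were drawn up with results of these data known, so their counts describe these libraries. A symbol placed in several lists is counted in each of them and once in the 171.

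**Figure D4:**
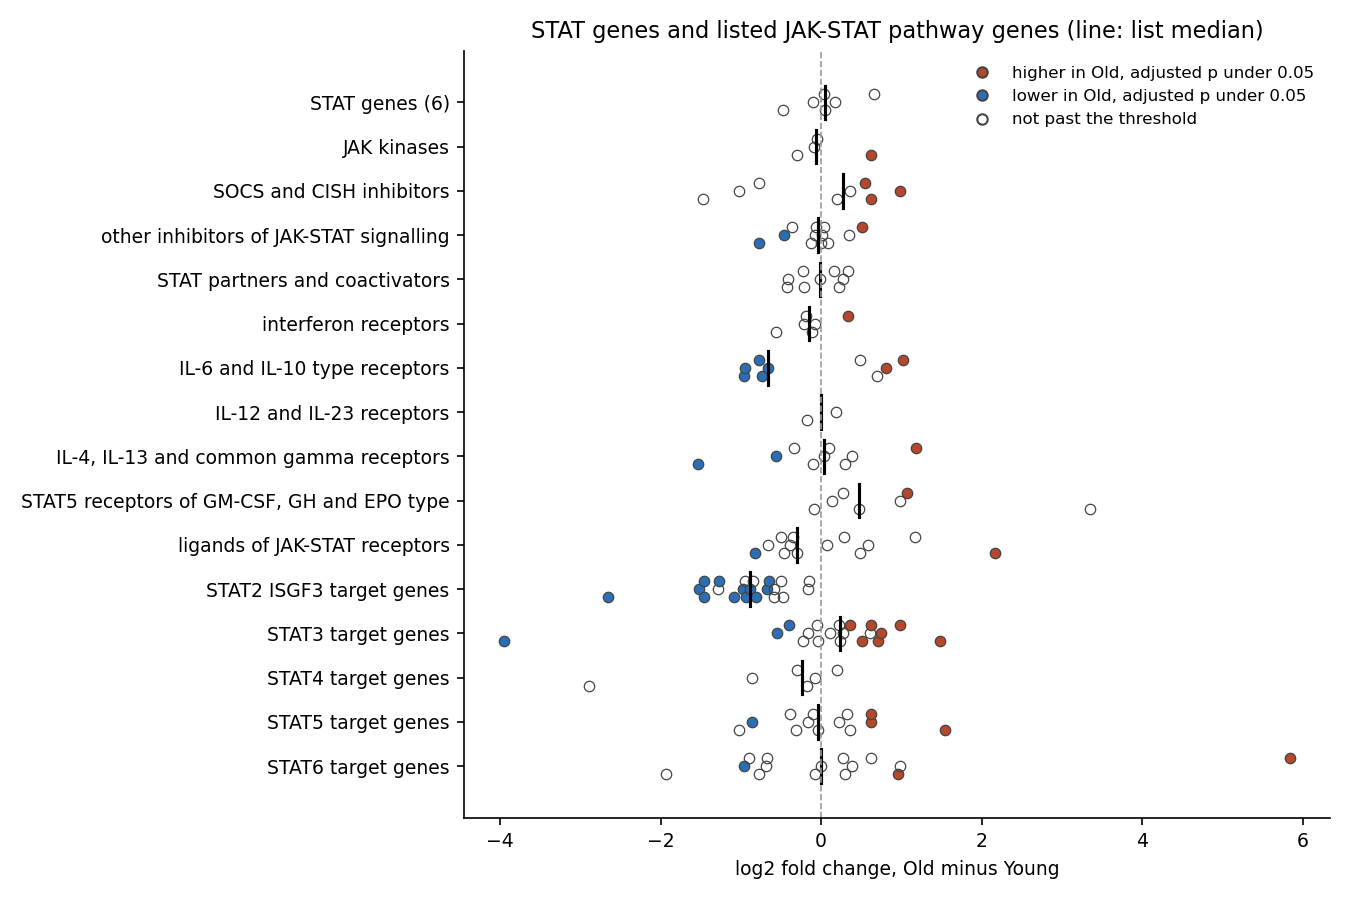
Each point is a tested gene of the list named at the left, placed at its log2 fold change, Old minus Young; red and blue fill mark an edgeR adjusted p under 0.05 for higher and lower in Old, open points did not pass, and the short line is the list median. The STAT genes center on 0.05 with no filled point, and the STAT2 target list centers on −0.88 with 12 blue points of 21.

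The ISGF3 targets, the genes that STAT2 serves, were, of the 15 lists, the one with the most lower genes by count. By share, 57.1% of its tested genes were lower, close to the 55.6% (5 of 9) of the IL-6 and IL-10 receptor list. Of 21 interferon-stimulated genes 12 were lower in Old, none was higher and 9 did not pass, and the median log2 fold change was −0.88. Background calls were 4.7% of all genes lower. *Dhx58*, which encodes the RNA sensor LGP2, had 20.8, 21.8 and 25.3 CPM in Old, against 41.8, 43.8 and 39.3 CPM in Young (log2 fold change −0.88, SE 0.11, edgeR adjusted p = 0.00342). *Mx1*, an interferon-stimulated gene, had 0.388, 0.364 and 0.194 CPM in Old, against 1.86, 2.38 and 1.81 CPM in Young (−2.65, SE 0.36, edgeR adjusted p = 0.005). For both genes every Old library was below every Young library, and both calls held with any 1 library left out. The Old level of *Mx1* rests on few counts. *Oas2*, a double-stranded RNA sensor, had 10.3 ± 2.15 CPM in Old and 21.9 ± 2.57 CPM in Young (−1.08, edgeR adjusted p = 0.0103). *Mx2*, a relative of *Mx1* annotated as a polymorphic pseudogene, had 1.08 ± 0.271 CPM in Old and 2.98 ± 0.345 CPM in Young (−1.46, edgeR adjusted p = 0.0153). The *Oas2* call was lost without Old replicate 1 or 2 (edgeR adjusted p up to 0.0531), and that of *Mx2* without Young replicate 1, Old replicate 2 or Old replicate 3 (up to 0.0576).

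Of the 21 targets, 17 had Old and Young ranges apart with Old below, against 14.3% of all genes tested. The count of 12 fell to 2 without Old replicate 2, to 3 without Old replicate 1, to 6 without Young replicate 1, to 7 without Young replicate 2 and to 8 without Old replicate 3, and was 17 without Young replicate 3. The count of lower genes over all genes changed in the same direction. In the same order of fits it went from 731 to 294, 309, 432, 494, 424 and 1168. *Irf9*, the DNA-binding partner of STAT2, had 66.9, 63.3 and 76.8 CPM in Old, against 98.2, 106.8 and 72.5 CPM in Young. Young replicate 3 lay inside the Old range, and the log2 fold change was −0.42 (SE 0.15, 95% interval −0.79 to −0.06, edgeR adjusted p = 0.149). *Usp18*, an interferon-induced protease that blocks the type I interferon receptor, had 42.4 ± 5.03 CPM in Old and 72.7 ± 16.8 CPM in Young (−0.78, edgeR adjusted p = 0.0342), and with 1 library left out the call held in just 1 of the 6 fits, that without Young replicate 3 (up to 0.132 in the others). The interferon receptor genes *Ifnar1* and *Ifnar2* did not pass, at 107 ± 4.61 and 106 ± 3.95 CPM in Old and 122 ± 10.8 and 123 ± 9.15 CPM in Young. Of 6 interferon receptor genes 1 was higher, *Ifngr1*, the ligand-binding chain for interferon gamma (0.33, edgeR adjusted p = 0.0326), and its call likewise held in just the fit without Young replicate 3 (up to 0.14 in the others). *Ifnb1* had no count in any library. Macrophage markers were lower in Old in the same libraries (12 of 14, summing to 5071 to 5473 CPM in Old and 9036 to 10769 CPM in Young), and their part in the *Stat2* and target values was not tested.

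**Figure D5:**
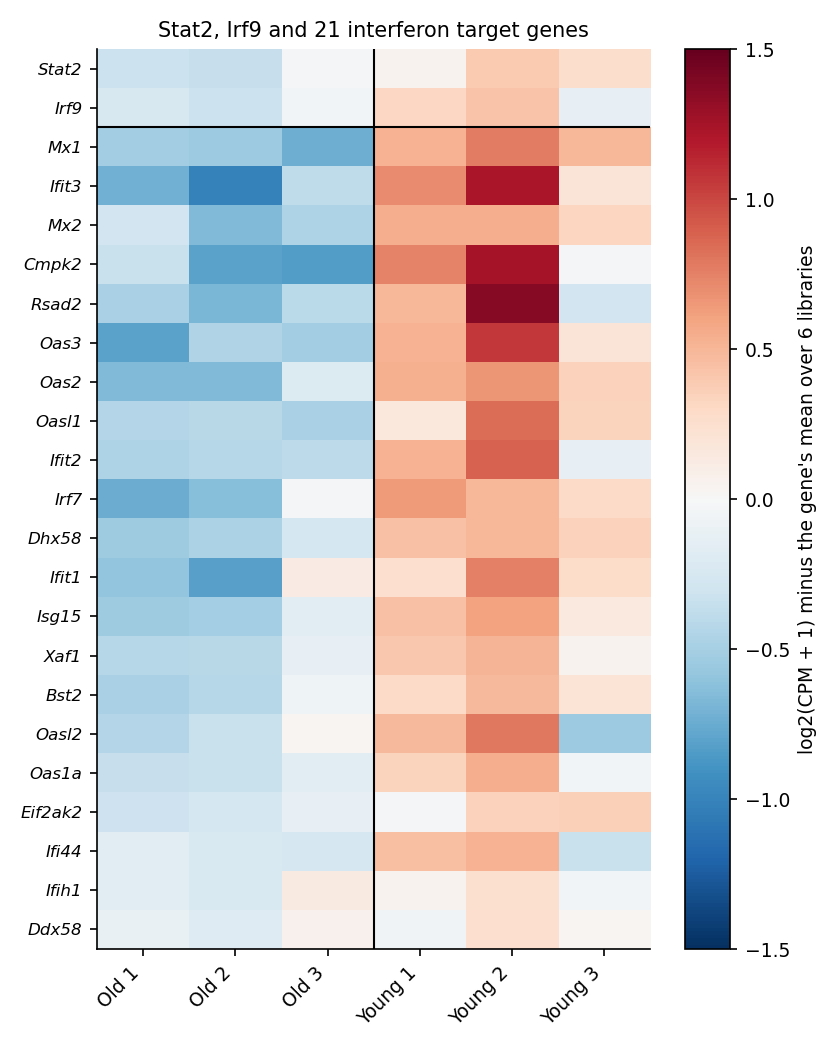
Rows are *Stat2*, *Irf9* and the 21 ISGF3 targets, ordered by fold change, and columns are the libraries, Old left of Young; color is log2(CPM + 1) minus the mean of the gene over the 6 libraries, red above and blue below. Old columns are mostly blue, Old replicate 3 is the palest of them, and Young replicate 2 has the deepest red.

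For STAT3, receptors and targets went both ways, while *Stat3* itself did not pass the test. Of 9 tested genes in the IL-6 and IL-10 receptor list 2 were higher and 5 lower in Old, with a median log2 fold change of −0.66. *Osmr*, the oncostatin M receptor chain, had 176, 168 and 208 CPM in Old, against 74.5, 99.4 and 98.7 CPM in Young (1.02, SE 0.14, edgeR adjusted p = 0.00535), and *Il11ra1*, the IL-11 receptor chain, rose 1.75-fold (0.81, edgeR adjusted p = 0.00135). *Csf3r*, the G-CSF receptor, fell to 17.9 ± 1.40 CPM in Old, against 34.5 ± 4.09 CPM in Young (−0.95, edgeR adjusted p = 0.00416), and *Lifr*, the LIF receptor, had 69.1 ± 9.92 CPM in Old and 109 ± 10.4 CPM in Young (−0.66, edgeR adjusted p = 0.0187). The *Lifr* call was lost without Young replicate 1, Old replicate 1 or Old replicate 2 (up to 0.0836), and the number of lower receptors was 1 without any of these 3 libraries in turn and 2 without Old replicate 3. Neutrophil markers, which share *Csf3r*'s usual cell type, summed to 543 to 987 CPM in Old and 775 to 1392 CPM in Young, edgeR called 0 of 8 (3 at an unadjusted p under 0.05, 2 lower by DESeq2, 0 by limma-voom, 1 lower by edgeR without Young replicate 3), and their part was not tested. Over all genes tested, 23.8% had an unadjusted edgeR p under 0.05, and DESeq2 called 7.3% lower. The shared signalling chain *Il6st* (gp130) did not pass, at 312 ± 47.5 CPM in Old and 224 ± 64.8 CPM in Young.

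The STAT3 target list had 19 tested genes, of which 7 were higher and 3 lower in Old, with a median log2 fold change of 0.23. Without Old replicate 1 there were 4 higher and 1 lower, and without Old replicate 2 there were 5 higher and 1 lower. *Il1rn*, the IL-1 receptor antagonist, had 523, 460 and 574 CPM in Old, against 157, 181 and 219 CPM in Young (1.48, SE 0.14, edgeR adjusted p = 0.00146). *Socs3*, the feedback inhibitor of gp130 signals, had 382, 367 and 407 CPM in Old, against 177, 200 and 207 CPM in Young (0.99, SE 0.09, edgeR adjusted p = 0.00118). The Old libraries lay above the Young ones for both genes. *Cebpd*, a transcription factor of the acute phase, rose 1.68-fold (0.75, edgeR adjusted p = 0.00161), with 15% of its exon length overlapped by *Spidr*. In the other direction *Saa3*, an acute-phase serum amyloid gene of macrophages and stromal cells, had 3.42 ± 1.64 CPM in Old and 53.3 ± 24.2 CPM in Young (−3.95, SE 0.50, edgeR adjusted p = 0.00377). All 4 calls held with any 1 library left out. Among 13 tested ligands 1 was higher and 1 lower. *Il6* had 5.59, 4.23 and 5.11 CPM in Old, against 1.31, 1.39 and 0.624 CPM in Young (2.16, SE 0.32, edgeR adjusted p = 0.00762), with all Old libraries above all Young ones, and *Ebi3*, a subunit of IL-27 and IL-35, had 8.29 ± 1.08 CPM in Old and 14.7 ± 0.930 CPM in Young (−0.83, edgeR adjusted p = 0.0123). The *Ebi3* call was lost without Old replicate 1 (0.051), and 23.4% of its exon length overlaps *Gm16712*. Stromal cells also express *Il6*, *Osmr* and *Lifr*, and of the 10 stromal markers 2 were higher and 2 lower in Old (0 or 1 lower with a library left out), and their part in these values was not tested.

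For STAT4, the receptor and target lists had no called gene. Of the 2 tested IL-12 and IL-23 receptor chains *Il12rb1* had 5.16 ± 1.21 CPM in Old and 4.54 ± 1.11 CPM in Young (0.18, edgeR adjusted p = 0.743). *Il12rb2* had 2.38 ± 1.11 CPM in Old and 2.68 ± 0.211 CPM in Young (−0.17, edgeR adjusted p = 0.824), and 40.0% of its exon length overlaps *Serbp1*. Neither had an unadjusted p under 0.05, and DESeq2 and limma-voom called 0. Of 6 tested STAT4 targets edgeR called 0, with 2 at an unadjusted p under 0.05, while DESeq2 and limma-voom each called 1 lower, and the median log2 fold change was −0.24. Over all genes tested, 23.8% had an unadjusted edgeR p under 0.05, and DESeq2 called 7.3% and limma-voom 4.55% lower. *Hlx*, a homeobox factor of the type 1 programme, had 57.8 ± 1.25 CPM in Old and 50.2 ± 2.26 CPM in Young (0.20, edgeR adjusted p = 0.173), and *Furin*, a proprotein convertase, had 98.6 ± 32.0 CPM in Old and 104 ± 37.9 CPM in Young (−0.08, edgeR adjusted p = 0.917).

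For the STAT5 pair, 1 of 7 tested receptor genes of the GM-CSF, growth hormone and erythropoietin type was higher in Old, with a median log2 fold change of 0.48. It was *Csf2rb2*, the IL-3 specific beta chain of mice, at 19.1, 22.4 and 26.9 CPM in Old, against 10.5, 11.3 and 10.9 CPM in Young (1.06, SE 0.15, edgeR adjusted p = 0.00575). DESeq2 called 3 of the 7 higher, against 8.55% of all genes tested, and edgeR called 2 without Young replicate 2. Markers of mast cells and basophils summed to 65.6 to 110.3 CPM in Old and 26.8 to 33.0 CPM in Young. Their part in the *Csf2rb2* value was not tested, and exchange of reads between *Csf2rb2* and *Csf2rb* was not examined. Of 13 STAT5 targets 3 were higher and 1 lower, with a median of −0.04. *Id1*, a helix-loop-helix inhibitor of differentiation, had 39.4, 41.6 and 35.5 CPM in Old, against 10.8, 13.3 and 16.1 CPM in Young (1.54, SE 0.16, edgeR adjusted p = 0.00193). *Ccnd2*, cyclin D2, had 358, 386 and 410 CPM in Old, against 719, 623 and 755 CPM in Young (−0.86, SE 0.10, edgeR adjusted p = 0.00279). The ages were apart in both genes, and all 3 of these calls held with any 1 library left out. The kinase gene *Pim1* rose 1.54-fold (0.62, edgeR adjusted p = 0.0216), but its call was lost without Young replicate 1 or any 1 Old library (up to 0.0788), and 14.5% of its exon length overlaps *Gm26885*. The number of STAT5 targets called higher was 1 without Young replicate 1 or any 1 Old library.

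For STAT6, 1 of 9 tested genes in the IL-4, IL-13 and common gamma chain receptor list was higher and 2 were lower, with a median of 0.03. The IL-4 receptor alpha chain gene *Il4ra*, through which STAT6 is engaged, had 256 ± 21.4 CPM in Old and 197 ± 19.1 CPM in Young and missed the threshold (0.38, edgeR adjusted p = 0.0573). *Il7r* rose to 47.1 ± 4.88 CPM in Old, against 20.8 ± 2.53 CPM in Young (2.26-fold, edgeR adjusted p = 0.0023). The common gamma chain gene *Il2rg* fell to 65.6 ± 4.97 CPM in Old, against 97.3 ± 4.44 CPM in Young (−0.57, edgeR adjusted p = 0.0087), with 30.5% of its exon length overlapped by *Gm20489*. *Il2rb* had 3.30 ± 1.185 CPM in Old and 9.53 ± 3.50 CPM in Young (−1.53, edgeR adjusted p = 0.0387), and of the fits with 1 library left out just that without Young replicate 3 kept the call (up to 0.135 in the others). Markers of T and NK cells summed to 5.43 to 13.1 CPM in Old and 17.4 to 32.3 CPM in Young, with 1 of 9 tested called lower. Their part in the *Il2rb* value was not tested. Developing B cells also express *Il7r*, and B-cell markers were higher in Old for 6 of 7 tested, but for 2 without Old replicate 1 or 2 and for 3 without Young replicate 1 or Old replicate 3, and their part was not tested. Of 15 tested STAT6 targets 2 were higher and 1 lower, with a median of −0.0012, whereas DESeq2 called 4 higher and 4 lower and edgeR called 4 lower without Young replicate 3. Among all genes tested, DESeq2 called 8.55% higher and 7.3% lower. *Ccl22*, a chemokine for regulatory T cells, had 5.52, 7.45 and 19.1 CPM in Old, against 0.428, 0 and 0.119 CPM in Young (5.84, SE 0.88, edgeR adjusted p = 0.0081). *Pparg*, the lipid-sensing nuclear receptor of alternative activation, had 65.5, 67.1 and 59.0 CPM in Old, against 31.6, 29.7 and 37.6 CPM in Young (0.95, SE 0.11, edgeR adjusted p = 0.00325). *Mrc1*, the mannose receptor, had 157, 142 and 162 CPM in Old, against 282, 298 and 318 CPM in Young (−0.97, SE 0.09, edgeR adjusted p = 0.00115), and it is also one of the 14 macrophage markers. In each of the 3 the ages were apart and the call held with any 1 library left out. Dendritic cell markers, another source of *Ccl22*, summed to 28.9 to 36.6 CPM in Old and 11.8 to 14.4 CPM in Young, with 2 of 6 tested higher (1 without any single library but Old replicate 1) and *Clec9a* at 0 in every library, and their part was not tested.

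Of the kinases that phosphorylate the STATs, 1 of 4 was higher, against 5.84% of all genes tested. *Jak1* had 453, 445 and 505 CPM in Old, against 263, 301 and 347 CPM in Young (0.62, SE 0.12, edgeR adjusted p = 0.0163), with all Old libraries above all Young ones. Its call was lost without Young replicate 2 or any 1 Old library (up to 0.0706). *Jak2* had 84.6 ± 9.16 CPM in Old and 87.4 ± 4.19 CPM in Young, *Tyk2* had 66.0 ± 3.67 CPM in Old and 70.3 ± 6.68 CPM in Young, and *Jak3* had 42.3 ± 4.09 CPM in Old and 52.3 ± 6.59 CPM in Young, and these 3 did not pass. Of the 8 SOCS and CISH feedback inhibitors edgeR called 3 higher and 0 lower, with a median log2 fold change of 0.28. DESeq2 called 1 lower, against 7.3% of all genes tested. By edgeR, 2 were lower without Young replicate 3 and 1 without Old replicate 1. The higher count was 1 without Old replicate 2 and 3 without Young replicate 3, and it was 2 in the remaining 4 fits with a library left out. Beside *Socs3* these were *Socs5* (0.54, edgeR adjusted p = 0.0115, and 0.0513 without Old replicate 2) and *Socs2* (0.63, edgeR adjusted p = 0.0408, called in just 1 of the 6 fits with a library left out, that without Young replicate 3, and up to 0.126 in the others). *Socs1*, the inhibitor of interferon and IL-4 signals, had 17.6 ± 0.815 CPM in Old and 30.04 ± 9.18 CPM in Young and did not pass (edgeR adjusted p = 0.0723). Of 12 other inhibitors 1 was higher and 2 lower. *Pias2*, a SUMO ligase, had 92.9 ± 3.42 CPM in Old and 65.2 ± 6.55 CPM in Young (0.51, edgeR adjusted p = 0.0174), and leaving out Young replicate 1 or any 1 Old library ended the call (up to 0.0809). *Ptpn6*, the phosphatase SHP-1, had 82.4 ± 5.82 CPM in Old and 114 ± 15.7 CPM in Young (−0.46, edgeR adjusted p = 0.0474), and among the fits with a library left out its call held in just that without Young replicate 3 (up to 0.175 in the others). Of 9 partners and coactivators, which include *Irf9*, edgeR called 0, with 1 at an unadjusted p under 0.05, against 23.8% of all genes tested. DESeq2 and limma-voom called 0 of the 9, while edgeR called 2 lower without Young replicate 3. The STAT importins *Kpna1* and *Kpna3* were the most abundant of them, at 90.8 ± 32.4 and 105 ± 1.89 CPM in Old and 121 ± 16.7 and 106 ± 20.8 CPM in Young.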

How the data were processed

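Per the labels' protocols, each library began as RNA of 10000 cells, was amplified with a low-input kit without strand marking, and was read as pairs of 100 bp. The authors deposited whole-number counts of reads per gene. The submitters' processing notes name the mm10 build and, in no stated order, STAR 2.6.1a, HISAT2 2.1.0, StringTie 1.3.4d, SAMtools 1.9, Picard 2.18.15, Trim Galore 0.50 and cutadapt 1.18. The counting tool, the annotation release, the strand setting and how multi-mapping reads were treated are not stated there. Amplified reads carry no molecular identifiers, so counting error is a lower limit of the error.

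Symbols matched 37607 identifiers. Positions and exon lengths came from GENCODE M21 (GRCm38) and promoter windows from RefSeq. Counts were filtered by filterByExpr, scaled by TMM and tested with the robust quasi-likelihood test of edgeR 4.0.16 in R 4.3.3, with no block and with Benjamini-Hochberg adjustment. Each SE was derived from the fold change and its F statistic. The procedure was also run on simulated counts drawn from the dispersions of this fit, with no outlying library. That run therefore does not cover a library that stands apart as Young replicate 3 does. Alternatives were size factors and the test of DESeq2 1.42.0, limma-voom (limma 3.58.1), upper-quartile factors, TMM without the 50 most abundant genes, another dispersion (non-robust), both a looser low-count filter (none) and a stricter one (50 counts in 3 libraries), a replicate block, 1 added to each count of the ratio, the longest transcript as length, and leaving out each library. The coefficients of variation without 1 library were added after seeing the data.

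The STAT genes were taken by symbol alone, but the choice to describe this family, and the lists, were made with earlier results of these data known. Named genes were the STAT genes, up to 4 genes per pathway list with the smallest p among those called (or the 2 most abundant where none was), the 2 most similar profiles, and the nearest protein-coding neighbours. *Irf9*, *Il6st*, *Il4ra*, *Ifnar1*, *Ifnar2*, *Ifnb1*, *Jak2*, *Jak3*, *Tyk2* and *Socs1* were added for their role after their values were seen. Some genes that these rules cover are not reported here.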

Additional observations from a re-analysis of the deposited data

How the results depend on the processing

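The STAT gene fold changes moved little with scaling, dispersion or low-count filter, and those settings moved the all-gene median log2 fold change by less than 0.1. The DESeq2 test called 1 STAT gene lower, *Stat2*, at −0.48 (adjusted p = 0.00938), and called 1137 of all genes lower, against 731 with edgeR. Leaving out 1 library turned the sign of 3 small fold changes, *Stat6* to −0.029 without Young replicate 1, *Stat3* to −0.0035 without Young replicate 2 and *Stat5b* to 0.094 without Old replicate 2. No STAT gene was called with any library left out, and fold changes ran between −0.59 and −0.40 for *Stat2*, −0.0035 and 0.17 for *Stat3*, 0.34 and 0.98 for *Stat4*, 0.07 and 0.24 for *Stat5a*, −0.24 and 0.09 for *Stat5b*, and −0.03 and 0.13 for *Stat6*. Over all genes, these fits called 418 to 1459 higher and 294 to 1168 lower, and over the pathway lists 13 to 22 higher and 8 to 41 lower. The *Stat5a* to *Stat5b* difference ran between 0.08 and 0.46. With the longest transcript as length the mean level over the 6 libraries became 69.8 CPM per kb for *Stat6* (59.9 with all exons), 45.4 for *Stat3* (28.8), 18.1 for *Stat2* (13.4), 12.3 for *Stat5b* (11.6) and 10.8 for *Stat5a* (5.99). The order of the 6 means was unchanged, but the Old ranges of *Stat5a* and *Stat5b* then overlapped. The cause of these shifts was not tested, beyond the fewer samples and the other lengths themselves.

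The labels do not say whether Old and Young libraries of the same replicate number belong together. Correlations of their deviations were 0.13, 0.03 and 0.16 for numbers 1, 2 and 3, so the numbers were not taken as pairs. Every library correlated best with its own number except Young replicate 2, which was closer to Old replicate 1 (0.08). With a replicate block edgeR called 711 genes higher and 575 lower in Old, 17 and 20 in the pathway lists, 7 of the 21 ISGF3 targets lower and no STAT gene. *Stat2* was at −0.48 there, with an adjusted p of 0.068. Depth limits *Stat4* most, with 27 to 80 counts per library. Each fit with a library left out rests on 3 libraries against 2.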
